A study of Mus musculus with 12 samples.

Results

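The Polycomb complex subunits described here are 10 mouse genes. Ezh1, Ezh2, Eed, Suz12, Jarid2, Rbbp4 and Rbbp7 encode 7 subunits of Polycomb repressive complex 2 (PRC2), and Ring1, Rnf2 and Bmi1 encode 3 subunits of Polycomb repressive complex 1 (PRC1). They were taken by symbol, with every probe set that the array annotation gives to one of them, which came to 30 of 45099 probe sets and 10 of 18194 genes. A probe set is a group of short probes on the array that reads one transcript or several related ones. RNA was measured on 12 Affymetrix arrays in thymocytes sorted from IkL/L mice and wild-type (WT) mice at the DN3, DN4 and DP stages, with 2 arrays for each of the 6 combinations of genotype and stage. DN3 and DN4 cells are successive precursors that carry neither CD4 nor CD8, and DP cells carry both co-receptors. The title of the series describes the IkL/L cells as deficient in Ikaros. IkL/L is known as a hypomorphic allele of Ikzf1, the gene of the zinc-finger transcription factor Ikaros, with a lacZ reporter inserted. Cells of 3 mice were pooled for sorting, and the labels give neither age nor sex and do not say whether the arrays of a group came from separate pools, so every p-value measures the spread between arrays only.

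PRC2 places methyl groups on lysine 27 of histone H3, the mark of Polycomb silencing. Ezh2 and its paralogue Ezh1 are the alternative catalytic subunits, Eed reads the mark and stimulates the enzyme, Suz12 holds the complex together, Rbbp4 and Rbbp7 bind histones, and Jarid2 helps to bring PRC2 to chromatin. PRC1 places ubiquitin on histone H2A through the RING-finger ligases Ring1 and Rnf2, with Bmi1 as a partner that stimulates them. Ezh2 is known as the subunit of dividing cells and Ezh1 as that of resting cells. Early thymocytes divide rapidly around the DN4 stage, and most DP cells are small and resting. Ikaros has been reported to act together with PRC2 in silencing genes in thymocytes, and the comparisons here ask whether the subunit genes themselves differ between genotypes and between stages.

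Values are log2 signals, so a difference of 1 is a doubling. A gene was represented by its brightest probe set, and all 10 members were at or above the array median on all 12 arrays with that probe set. Of the 30 member probe sets, 23 were bright enough to test. Genes were tested with limma over 11649 genes, and probe sets with the same model over 25009 probe sets. The threshold for a call was an adjusted p under 0.05 (Benjamini-Hochberg). Every adjusted p below comes from limma.

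Ikzf1, the targeted gene, had 11.23 and 11.23 in IkL/L DN3 cells, against 11.83 and 11.93 in WT DN3 cells. At DN4 it had 11.22 and 11.18 in IkL/L cells, against 11.78 and 11.88 in WT cells, and at DP 11.75 and 11.56 in IkL/L cells, against 12.30 and 12.40 in WT cells. The IkL/L arrays were thus below the WT arrays at every stage, at 63.7%, 64.5% and 61.7% of WT at DN3, DN4 and DP. By list mean the stage markers were highest in the labelled stage: the mean of 5 DN3 markers was 9.28 to 9.30 in IkL/L DN3 cells and 9.84 to 9.85 in WT DN3 cells and was below 8 on all other arrays, and the mean of 6 DP markers was 11.87 to 12.11 in IkL/L DP cells and 12.01 to 12.17 in WT DP cells and was below 9 elsewhere. The mean of the DN3 markers was nevertheless higher in IkL/L DP cells (7.17 to 7.62) than in WT DP cells (6.35 to 6.54). This came from Dtx1, Ptcra and Hes1. Il2ra overlapped between the genotypes at DP (4.56 and 5.07 in IkL/L cells, against 4.80 and 5.12 in WT cells). Nrarp overlapped too (6.53 and 6.71 in IkL/L DP cells, against 6.58 and 6.45 in WT DP cells). Dtx1 read 9.04 and 10.21 in IkL/L DP cells, against 9.06 and 9.34 in IkL/L DN3 cells, and Ptcra 10.03 and 10.05 in IkL/L DP cells, against 10.27 and 10.03 in IkL/L DN3 cells. The DP marker Cd8b1 differed at DN4, with 7.86 and 7.78 in IkL/L cells, against 9.40 and 9.55 in WT cells. Cd8a and Aqp11 were also lower on both IkL/L DN4 arrays than on the WT DN4 arrays, while Rag1, Rag2 and Cd4 were higher. The mean of 8 myeloid markers was 6.02 and 5.11 on the IkL/L DN3 arrays, against 4.92 and 4.95 on the WT DN3 arrays. At DN4 it was 5.24 and 4.63 in IkL/L cells, against 4.83 and 4.86 on the WT DN4 arrays. On the first IkL/L DN3 array S100a8 (8.96), S100a9 (7.27), Lyz2 (8.28) and Itgam (4.07) were above both WT DN3 arrays. Mpo, Elane, Csf1r and Cd68 were not. On the first IkL/L DN4 array S100a8 (7.09), S100a9 (5.66) and Lyz2 (5.76) were above both WT DN4 arrays, and the other myeloid markers were not. The erythroid gene Alas2 read 8.80 and 5.65 on the IkL/L DN3 arrays, against 6.58 and 7.10 on the WT DN3 arrays. Its DN4 values were 8.64 and 5.85 in IkL/L cells, against 6.56 and 7.13 on the WT DN4 arrays. At both stages the first IkL/L replicate was thus the highest for the myeloid mean and for Alas2. Klf1, another erythroid gene, was also highest there at DN3 (5.76), but not at DN4 (5.62, against 5.78 on the second WT array). Hba-a1, near the floor, was not highest there at either stage, with 4.02 at DN3 and 3.85 at DN4. The part of myeloid and erythroid cells in the subunit differences was not tested. Y-linked transcripts were near the floor on the 3 IkL/L replicate 2 arrays, where Eif2s3y read 2.82 to 3.12, against 7.78 to 9.58 on the other 9 arrays. Xist, another sex-linked gene, read 10.33 to 12.70 over all 12 arrays, so those 9 arrays held both Xist and Y-linked signal. In bulk RNA of sorted cells, fewer cells of a type and less RNA per cell cannot be told apart.

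**Figure D1:**
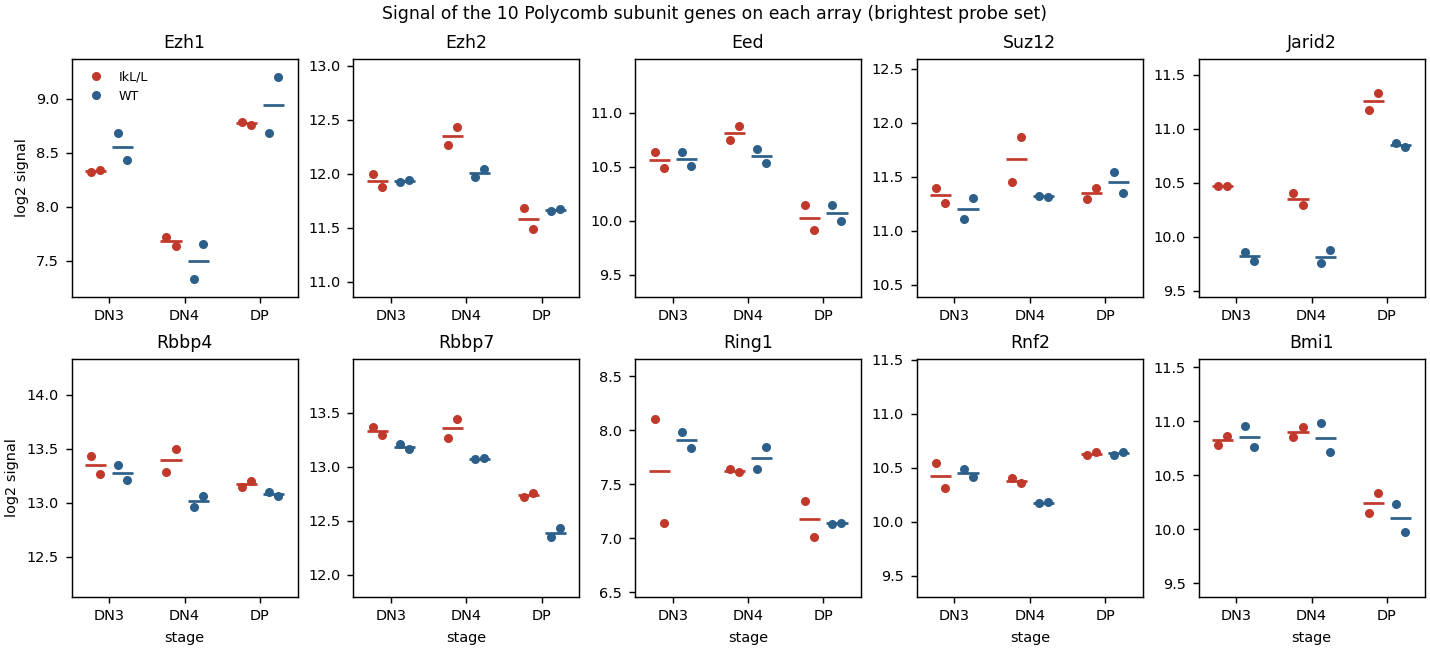
Log2 signal of the brightest probe set of each subunit gene (vertical axis) at the 3 stages (horizontal axis), with 1 point per array, a bar at the mean of the 2 arrays, IkL/L in red and WT in blue. Each panel has its own range. Jarid2 lies higher in IkL/L cells at every stage, Ezh1 is lowest at DN4 and highest at DP, and Eed, Bmi1 and Rbbp7 are lowest at DP.

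Jarid2 was the subunit gene with a genotype difference called within a stage. Its brightest probe set read 10.47 and 10.47 in IkL/L DN3 cells, against 9.86 and 9.78 in WT DN3 cells. At DN4 it read 10.40 and 10.30 in IkL/L cells, against 9.75 and 9.87 in WT cells. At DP it read 11.17 and 11.33 in IkL/L cells, against 10.87 and 10.83 in WT cells. Both IkL/L arrays were above both WT arrays at each of the 3 stages, with no overlap. The IkL/L minus WT difference was 0.65 at DN3 (SE 0.12, 1.57-fold, adjusted p 0.00798), 0.54 at DN4 (SE 0.12, 1.45-fold, adjusted p 0.0209) and 0.40 at DP (95% interval 0.14 to 0.67, adjusted p 0.0785), the last of which did not pass. Averaged over the stages it was 0.53 (SE 0.069, 95% interval 0.38 to 0.68, adjusted p 0.000287). That averaged call held under all 20 alternatives tried, with differences of 0.30 to 0.56 and an adjusted p of at most 0.0239.

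The calls of Jarid2 within a stage did not hold with every array left out in turn. Leaving out a WT DN3 array ended the DN3 call of Jarid2, with an adjusted p of 0.0621 without the first replicate and 0.091 without the second. Leaving out any DN4 array ended its DN4 call, with an adjusted p of 0.129 and 0.0916 without the first and second IkL/L replicates and 0.125 and 0.0799 without the first and second WT replicates. The DN3 call was also lost on the 4 DN3 arrays fitted alone (0.0691), and both calls were lost without the 3 IkL/L replicate 2 arrays (0.0836 and 0.0956). With the mean of its probe sets Jarid2 differed by 0.31 at DN3 (0.288) and by 0.37 at DN4 (0.117), neither called. The other bright Jarid2 probe set, 1422697_s_at, gave IkL/L minus WT differences of 0.34, 0.48 and 0.28 at DN3, DN4 and DP, with overlapping groups at DP, and the average of 0.37 did not pass among all probe sets (adjusted p 0.0948). The remaining, dimmer probe set, 1450710_at, gave -0.053, 0.085 and -0.011. The Jarid2 probe sets thus did not all show the difference.

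Over all 10 subunit genes, 1 was called at DN3 (Jarid2, higher), where 4.28% of all tested genes were called. At DN4 1 was called (Jarid2, higher), where 6.88% of all genes were. At DP none passed, where 5.98% of all genes did, and 2 members, Jarid2 and Rbbp7, had an unadjusted p under 0.05. For the average of the stages 2 were called, Jarid2 and Rbbp7, both higher, where 15.5% of all genes were. Among the 23 tested member probe sets the counts were 1 at DN3, 1 at DN4, 0 at DP and 2 for the average. The matching shares of all tested probe sets were 1.82%, 3.17%, 2.79% and 8.67%. The count of 2 among 10 genes is near the share of all genes called.

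Rbbp7, an X-linked gene for a histone-binding subunit, also differed when the stages were averaged. It read 13.37 and 13.29 in IkL/L DN3 cells, against 13.21 and 13.17 in WT DN3 cells. At DN4 it read 13.27 and 13.45 in IkL/L cells, against 13.07 and 13.08 in WT cells. At DP it read 12.72 and 12.76 in IkL/L cells, against 12.35 and 12.43 in WT cells. The IkL/L arrays were again above the WT arrays at each stage. Stage differences were 0.14, 0.28 and 0.35, none of which passed, and their average was 0.26 (SE 0.068, 1.20-fold, 95% interval 0.11 to 0.41, adjusted p 0.0245). The other Rbbp7 probe set, 1415775_at, had the same average of 0.26 but did not pass among all probe sets (adjusted p 0.0824). The Rbbp7 call was lost in 10 of 20 alternatives. Leaving out the second IkL/L DN4 array gave an adjusted p of 0.0845, and leaving out either IkL/L DP array gave 0.0525 and 0.061. For the WT arrays it was 0.0615 and 0.0744 without the first and second DN3 replicates and 0.0551 and 0.0593 without the first and second DN4 replicates. A second quantile normalization gave a smaller difference of 0.10 (0.29), and arrays centred on their median gave 0.0514. Without the 3 IkL/L replicate 2 arrays, those low in Y-linked signal, the adjusted p was 0.157.

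**Figure D2:**
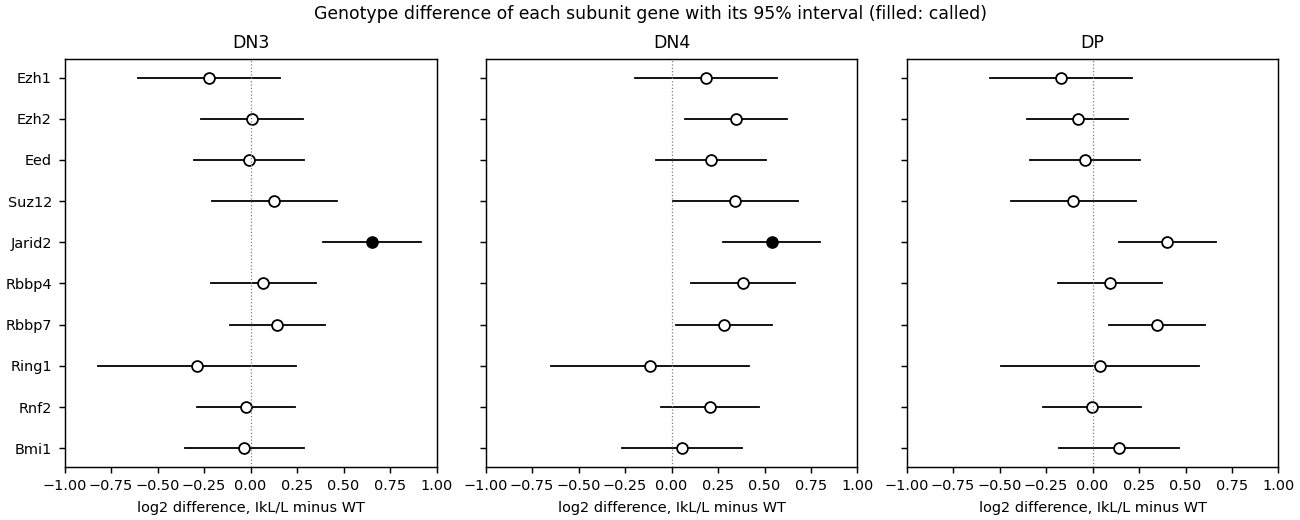
Log2 difference, IkL/L minus WT, of each subunit gene (rows) at DN3, DN4 and DP (panels), with its 95% interval from limma as a line. Filled points were called, and Jarid2 at DN3 and DN4 (0.65 and 0.54) is the only gene so marked.

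At DN4 the subunit genes lay mostly on the IkL/L side. Of the 10, 9 had a positive IkL/L minus WT difference, with a median of 0.25, against a median of -0.0020 over all tested genes. The shift was not particular to the subunits. Genes that oppose Polycomb marks had a DN4 median of 0.295 and partners of canonical PRC1 one of 0.17. For PRC2 accessory genes it was 0.082, for partners of variant PRC1 -0.11 and for Polycomb-silenced genes -0.20. Ezh2, the catalytic subunit, read 12.27 and 12.44 in IkL/L DN4 cells, against 11.97 and 12.04 in WT DN4 cells, a difference of 0.35 (95% interval 0.073 to 0.62, adjusted p 0.116). Rbbp4 had a difference of 0.38 (95% interval 0.10 to 0.66, adjusted p 0.0948) and Suz12 one of 0.34 (95% interval 0.0050 to 0.68, adjusted p 0.197). None of these 3 differences passed. Rbbp4 did pass at DN4 with the mean of its probe sets (0.48, adjusted p 0.0313) and with a trend and robust prior (0.0303), and for the average of the stages under the same settings (0.0283 and 0.0426). Its probe sets disagreed at DN4, however: the brightest gave 0.38, 1454791_a_at 0.42, 1454875_a_at -0.47 and 1456260_at 1.595. The last of these read 6.97 and 8.38 in IkL/L DN4 cells, against 6.30 and 5.87 in WT DN4 cells. At DN3 and DP the member medians were -0.0011 and 0.019, against -0.041 and 0.026 over all genes. Of 22 tested proliferation genes, 4 were called higher in IkL/L cells at DN4, with a list median of 0.33, and their mean level was 11.54 to 11.61 in IkL/L DN4 cells and 11.19 to 11.24 in WT DN4 cells. These calls, of Tyms, Rrm2, Mki67 and Mcm7, were lost in 11, 9, 11 and 14 of 21 alternatives, with adjusted p up to 0.29. The proliferation median was 0.16 at DN3, and at DP, where the subunit median was 0.019, it was 0.32. The part of proliferation in the subunit differences was not tested.

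Ring1, a ubiquitin ligase of PRC1, had the least even pair of arrays among the brightest probe sets, at DN3 in IkL/L cells. It read 8.11 and 7.14 in IkL/L DN3 cells, against 7.99 and 7.84 in WT DN3 cells. One IkL/L array was above both WT arrays and the other below both. The difference was -0.29 (95% interval -0.82 to 0.24), and it turned with the array left out: -0.77 without IkL/L DN3 replicate 1 (adjusted p 0.0251) and 0.19 without IkL/L DN3 replicate 2 (adjusted p 0.796). In both cases 1 IkL/L DN3 array was left, assumed to vary like the other groups. The other PRC1 members had genotype intervals that included 0 at each stage: Rnf2 had differences of -0.027, 0.21 and -0.0015 at DN3, DN4 and DP, and Bmi1 of -0.034, 0.055 and 0.14.

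RefSeq promoter windows were available for all 10 members, as 300 bases from 250 before to 50 after each annotated start on GRCm38.p6. The windows of both genes with a called average difference are printed because each holds the core of the Ikaros binding motif, TGGGAA, searched on both strands and shown in capitals (TTCCCA where it lies on the opposite strand).
Jarid2 promoter, chr13:44730524-44730823, plus strand: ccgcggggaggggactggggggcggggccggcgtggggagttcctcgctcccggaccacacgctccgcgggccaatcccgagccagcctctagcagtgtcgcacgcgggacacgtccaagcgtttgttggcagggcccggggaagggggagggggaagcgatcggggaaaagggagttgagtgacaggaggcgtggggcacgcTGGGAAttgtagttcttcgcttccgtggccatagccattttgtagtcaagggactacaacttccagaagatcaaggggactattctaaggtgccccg
Rbbp7 promoter, chrX:162760122-162760421, plus strand: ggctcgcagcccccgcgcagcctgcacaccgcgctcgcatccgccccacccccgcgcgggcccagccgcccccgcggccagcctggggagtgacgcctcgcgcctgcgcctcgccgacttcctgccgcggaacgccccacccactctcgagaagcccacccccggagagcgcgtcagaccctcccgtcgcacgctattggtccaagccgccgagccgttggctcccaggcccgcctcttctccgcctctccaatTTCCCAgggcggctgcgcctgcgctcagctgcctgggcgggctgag
Jarid2 has the motif core from base -47, counted from this start, and a second annotated Jarid2 start has none. In the Rbbp7 window it begins at base 5, counted with the start base included, on the opposite strand. Bmi1, with no genotype call, was the third member with a match, so 3 of 11 member windows held the core, against 25.6% of all 32851 windows. A match describes letters in a window and is no evidence of a bound site.

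The step from DN4 to DP moved 6 of the 10 subunit genes in IkL/L cells and 7 in WT cells, along with a large share of all genes. In IkL/L cells 2 members were called higher and 4 lower at DP, where 45.5% of all tested genes were called (19.5% higher and 26.0% lower). In WT cells 3 were called higher and 4 lower, where 57.0% of all genes were called (23.8% higher and 33.2% lower). Among the 23 member probe sets, 12 were called in IkL/L cells, against 38.3% of all tested probe sets, and 13 in WT cells, against 55.1%. The member shares lie close to these backgrounds. The members did not move in one direction: Ezh1 and Jarid2 rose in both genotypes, while Ezh2, Eed, Bmi1 and Rbbp7 fell in both.

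**Figure D3:**
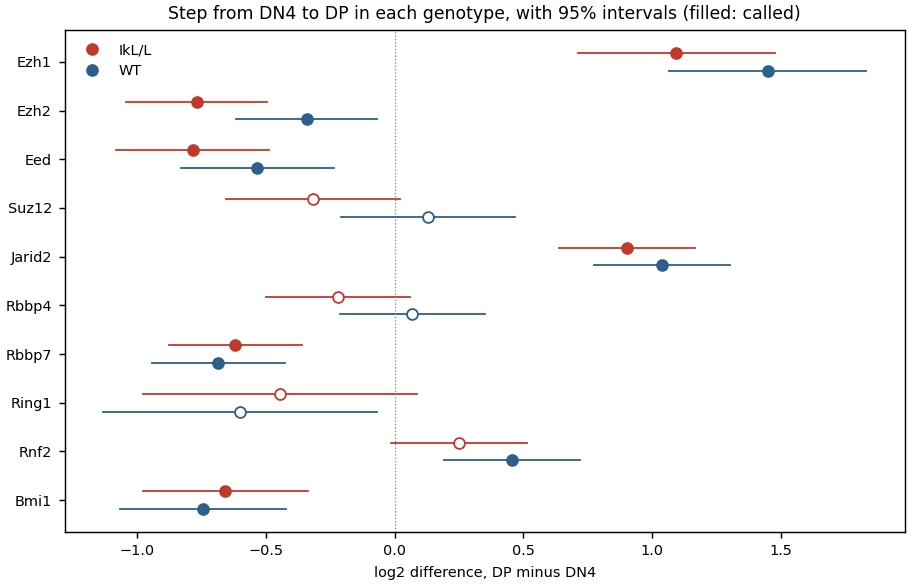
Log2 difference, DP minus DN4, of each subunit gene in IkL/L cells (red, upper of each pair) and WT cells (blue, lower), with 95% intervals from limma and filled points for called differences. Ezh1 and Jarid2 lie right of 0 and Ezh2, Eed, Rbbp7 and Bmi1 left of 0 in both genotypes.

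By their brightest probe sets, both catalytic subunits changed, in opposite directions. Ezh1 read 8.33 and 8.34 at DN3, 7.72 and 7.64 at DN4 and 8.79 and 8.76 at DP in IkL/L cells. In WT cells it read 8.68 and 8.43 at DN3, 7.33 and 7.66 at DN4 and 8.69 and 9.20 at DP. Its DN4 arrays were the lowest and its DP arrays the highest in both genotypes. The DP minus DN4 difference was 1.09 in IkL/L cells (SE 0.18, 2.13-fold, adjusted p 0.000299) and 1.45 in WT cells (SE 0.18, 2.73-fold, adjusted p 2.4e-05). The other tested Ezh1 probe set, 1418290_a_at, which is near the array median, gave 0.11 in IkL/L cells and 0.25 in WT cells, neither called. Ezh2, read by 1 probe set, had 11.999 and 11.88 at DN3, 12.27 and 12.44 at DN4 and 11.68 and 11.49 at DP in IkL/L cells. In WT cells it had 11.92 and 11.94 at DN3, 11.97 and 12.04 at DN4 and 11.66 and 11.68 at DP. Ezh2 was lowest at DP in both genotypes, with a DP minus DN4 difference of -0.77 in IkL/L cells (SE 0.12, 58.7% of DN4, adjusted p 0.000337) and -0.34 in WT cells (SE 0.12, 78.9% of DN4, adjusted p 0.0344). The WT call was lost without any 1 of the 6 WT arrays: the adjusted p was 0.0524 and 0.0522 without DN3 replicates 1 and 2, 0.071 and 0.141 without DN4 replicates 1 and 2, and 0.089 and 0.0762 without DP replicates 1 and 2. Fitted on the DN4 and DP arrays of WT cells alone it was 0.0999. The larger fall in IkL/L cells was itself tested as a difference of the steps, -0.43 (95% interval -0.81 to -0.040, unadjusted p 0.0332, adjusted p 0.292), and did not pass.

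The windows of the 2 catalytic genes are shown side by side because their signals moved in opposite directions. Capitals mark a match to an E2F word, any of TTTGGCGC, TTTGCCGC, TTTCGCGC and TTTCCCGC on either strand, E2F being the factor family of the cell cycle.
Ezh1 promoter, chr11:101226414-101226713, minus strand: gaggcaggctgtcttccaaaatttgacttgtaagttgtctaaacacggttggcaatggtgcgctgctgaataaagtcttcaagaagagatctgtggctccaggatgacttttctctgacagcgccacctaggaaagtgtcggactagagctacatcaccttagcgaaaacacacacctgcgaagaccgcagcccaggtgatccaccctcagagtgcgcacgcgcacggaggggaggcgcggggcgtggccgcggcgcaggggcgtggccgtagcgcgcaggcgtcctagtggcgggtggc
Ezh2 promoter, chr6:47594981-47595280, minus strand: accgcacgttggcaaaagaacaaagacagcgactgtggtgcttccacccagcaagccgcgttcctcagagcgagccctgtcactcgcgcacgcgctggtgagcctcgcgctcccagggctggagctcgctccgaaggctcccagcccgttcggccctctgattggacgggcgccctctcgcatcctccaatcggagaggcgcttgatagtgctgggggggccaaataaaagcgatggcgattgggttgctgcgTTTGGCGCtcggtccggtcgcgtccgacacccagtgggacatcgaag
Ezh2 has 1 match, from base 4 counted with the start base included, and Ezh1 has none in this window. The Ezh2 start used here lies inside the annotated gene, whose upstream end is at chr6:47595270. Suz12 was the other member with a match, from base -219. These words occurred in 2.26% of all 32851 windows. The cell-cycle element TTTGAA was in the windows of Eed, where it occurs on both strands, and Suz12, against 17.9% of all windows, and the TATA word TATAAA was in the second Jarid2 window, against 13.6%. The member windows had 54.7% to 75.7% G and C, against a median of 52.7% over all windows.

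Eed, the subunit that reads the methyl mark, fell along with Ezh2. It read 10.14 and 9.91 at DP and 10.74 and 10.88 at DN4 in IkL/L cells, and 10.14 and 9.99 at DP and 10.67 and 10.53 at DN4 in WT cells. No DP array reached a DN4 array. The DP minus DN4 difference was -0.78 in IkL/L cells (adjusted p 0.000518) and -0.53 in WT cells (adjusted p 0.00524). Rbbp7 fell by 0.62 in IkL/L cells (adjusted p 0.00104) and by 0.68 in WT cells (adjusted p 0.000375), and its other probe set by 0.99 in IkL/L cells and by 1.10 in WT cells. Both Rbbp7 probe sets were below DN4 on every DP array. Jarid2 went the other way: its 2 DP arrays were the highest of each genotype, and the DP minus DN4 difference was 0.90 in IkL/L cells (1.87-fold, adjusted p 7.79e-05) and 1.04 in WT cells (2.05-fold, adjusted p 1.73e-05).

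Within PRC1, Bmi1 fell at DP. It read 10.16 and 10.34 at DP and 10.86 and 10.95 at DN4 in IkL/L cells, and 10.24 and 9.97 at DP and 10.98 and 10.71 at DN4 in WT cells. The differences were -0.66 in IkL/L cells (adjusted p 0.003) and -0.74 in WT cells (adjusted p 0.00102), and the second Bmi1 probe set gave -0.71 in IkL/L cells and -0.92 in WT cells. Rnf2 read 10.62 and 10.64 at DP and 10.40 and 10.36 at DN4 in IkL/L cells, and 10.62 and 10.64 at DP and 10.17 and 10.18 at DN4 in WT cells. It was called higher at DP in WT cells (0.46, adjusted p 0.00661), with 0.25 in IkL/L cells (95% interval -0.014 to 0.51, adjusted p 0.117). Its second bright probe set, 1451519_at, gave 0.029 in IkL/L cells and -0.055 in WT cells, so the rise was in 1 of 2 bright Rnf2 probe sets. Ring1 had a DP minus DN4 difference of -0.45 in IkL/L cells (adjusted p 0.163) and -0.60 in WT cells (95% interval -1.13 to -0.070, adjusted p 0.052). The WT value passed in several other settings. With the replicate number as a block within genotype the adjusted p was 0.0202, and with a single replicate block 0.0456. It was 0.016 after a second quantile normalization and 0.0101 on the WT DN4 and DP arrays alone. A filter at the 75th percentile gave 0.0458, and a trend and robust prior 0.0495. On the IkL/L DN4 and DP arrays alone the IkL/L value passed too (0.0352).

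For Rbbp4 and Suz12 the probe sets differed in size, and in WT cells also in sign. In IkL/L cells all 4 tested Rbbp4 and all 5 tested Suz12 probe sets had a negative DP minus DN4 difference, while in WT cells 1 of 5 Suz12 and 2 of 4 Rbbp4 probe sets had a positive one. The brightest Rbbp4 probe set, 1434892_x_at, gave DP minus DN4 differences of -0.22 in IkL/L cells and 0.069 in WT cells, neither called. Another, 1454791_a_at, fell by 1.24 in IkL/L cells (adjusted p 0.00202) and by 0.84 in WT cells (adjusted p 0.0101). The next, 1454875_a_at, gave -0.71 in IkL/L cells, which did not pass, and fell by 1.80 in WT cells (adjusted p 0.0286). The fourth, 1456260_at, gave -0.35 in IkL/L cells and 1.58 in WT cells (adjusted p 0.0507). The last 2 of these were also uneven between arrays of a group: in IkL/L DN4 cells 1454875_a_at read 9.81 and 7.90 and 1456260_at read 6.97 and 8.38. Of the 5 tested Suz12 probe sets, the brightest, 1420021_s_at, gave -0.32 in IkL/L cells and 0.13 in WT cells, neither called, while 1452364_at fell by 0.91 in IkL/L cells (adjusted p 0.00473) and by 0.67 in WT cells (adjusted p 0.0151). Suz12 probe set 1427253_s_at fell by 0.62 in IkL/L cells (adjusted p 0.0414), with -0.19 in WT cells, which did not pass. The remaining Suz12 probe sets did not pass in either genotype: 1420020_at gave -0.28 in IkL/L cells and -0.12 in WT cells, and 1420022_s_at gave -0.42 in IkL/L cells and -0.16 in WT cells. As background, names ending in s_at mark probe sets that can read several transcripts, and those ending in x_at mark probes that may bind other sequences too.

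**Figure D4:**
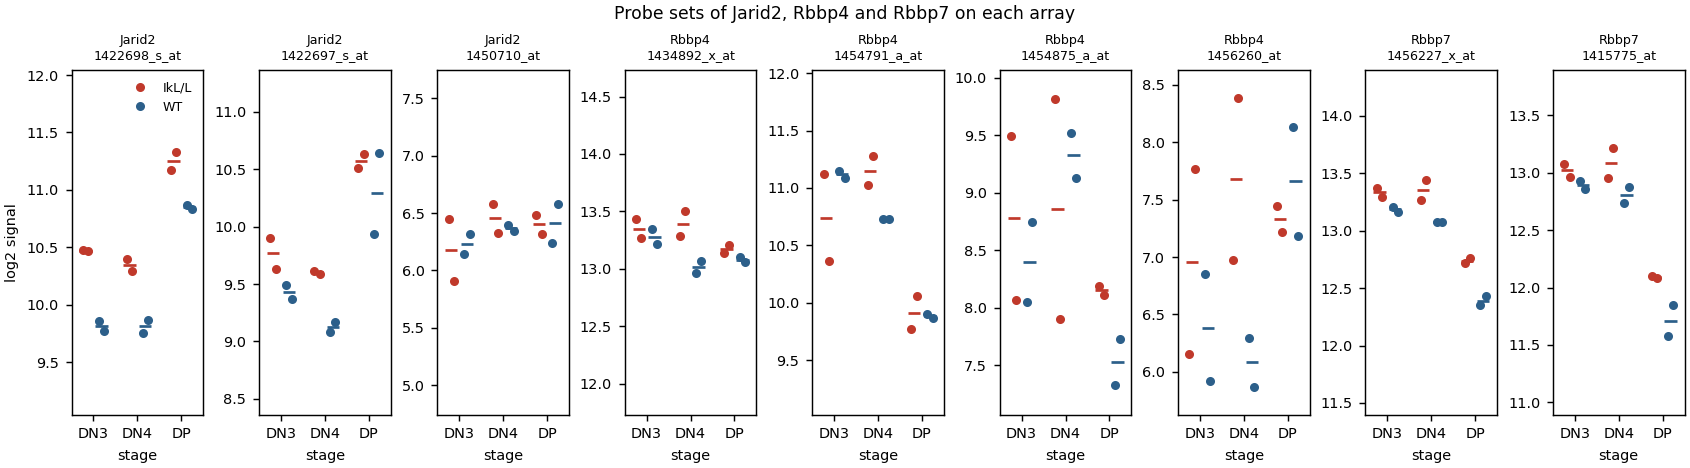
Log2 signal (vertical axis) of the tested probe sets of Jarid2, Rbbp4 and Rbbp7, 1 panel each, by stage, with 1 point per array, bars at the mean, IkL/L in red and WT in blue. Each panel has its own range. Both Rbbp7 probe sets fall at DP, the 4 Rbbp4 probe sets differ in size and, in WT cells, in sign, and 2 of the 3 Jarid2 probe sets are higher at DP than at DN4.

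Some of these calls depended on representing a gene by its brightest probe set. With the mean of all probe sets of a gene, dim ones included, the DP minus DN4 difference of Eed was -0.21 in IkL/L cells (adjusted p 0.138) and -0.17 in WT cells (0.195). That of Ezh1 was 0.29 in IkL/L cells and 0.37 in WT cells, still called in both. Rnf2 turned to -0.065 in WT cells (0.652). In IkL/L cells Rbbp4 and Suz12 passed with that setting, at -0.63 (0.000963) and -0.47 (0.0171).

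Between DN3 and DN4 few members moved. In IkL/L cells 0 of 10 subunit genes and 0 of 23 probe sets were called, where 4.40% of all genes and 1.98% of all probe sets were, and 2 members had an unadjusted p under 0.05. These were Ezh1 (-0.65, 95% interval -1.04 to -0.27, adjusted p 0.061) and Ezh2 (0.42, 95% interval 0.14 to 0.69, adjusted p 0.095). In WT cells 1 of 10 genes and 1 of 23 probe sets were called, where 9.25% of all genes and 4.80% of all probe sets were. That gene was Ezh1, which fell by 1.06 (SE 0.18, 47.9% of DN3, adjusted p 0.00262). With the mean of all Ezh1 probe sets it was -0.17 (adjusted p 0.393), and the probe set 1418290_a_at alone gave 0.081, not called. Without the first or second WT DP array the IkL/L value of Ezh1 passed (adjusted p 0.0224 and 0.0223). It also passed with the replicate number as a block within genotype (0.0444) and after a second quantile normalization (0.0283). Ezh2 passed with a trend and robust prior (0.0406). The difference between the genotypes in this step was 0.41 for Ezh1 (95% interval -0.13 to 0.95) and did not pass.

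None of the 10 members passed the test of a difference between genotypes in a step. For the step from DN3 to DN4 that test called 0.0515% of all genes and no member had an unadjusted p under 0.05. For the step from DN4 to DP it called 0.987% of all genes, and Ezh2 alone of the members had an unadjusted p under 0.05. With 2 arrays a group, the intervals of these differences were wide, as for Suz12 (-0.45, 95% interval -0.92 to 0.031).

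Over the 12 arrays the members called at the DP step in both genotypes fell into the same opposing sets, Ezh1 and Jarid2 against Ezh2, Eed, Bmi1 and Rbbp7. This describes arrays that share their stages. Suz12 and Rbbp4 were less clearly placed, with r of 0.22 and 0.50 to Eed and -0.33 and -0.054 to Ezh1. Ezh2 and Eed had a Pearson r of 0.93, Eed and Bmi1 0.91, and Ezh1 and Ezh2 -0.77. Of all tested genes, Uqcrfs1 (r 0.98), Ncapg (0.96), Ube2t (0.95), Haspin (0.95) and Taf5 (0.95) were most like Ezh2. Most like Ezh1 were Ralgps2, Ric8a, Zfp287, Tceanc2 and Vps39, all with r of 0.98.

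Proliferation genes and 1 of 2 measures of RNA quality also moved with the DP step, and their part in the subunit differences was not tested. All 22 tested proliferation genes were called lower at DP in IkL/L cells (median -1.29) and 19 in WT cells (median -1.32). The gap between the 3' and 5' Gapdh control probe sets was 3.02 to 3.83 on the DP arrays and 2.01 to 2.73 on the DN3 and DN4 arrays. The same gap for actin did not separate the stages: it was 2.26 to 2.86 on the DP arrays and 1.74 to 2.86 on the DN3 and DN4 arrays.

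Other Polycomb genes, given as lists, also changed at the DP step, where 45.5% of all genes were called in IkL/L cells and 57.0% in WT cells. Of 7 genes for enzymes that oppose Polycomb marks or for their partners, 4 rose at DP in IkL/L cells (list median 0.58, against -0.038 over all genes) and 5 in WT cells (0.75, against -0.15). Kdm6b, which removes the PRC2 mark, rose by 1.41 in IkL/L cells and by 1.60 in WT cells. Mysm1, a histone H2A deubiquitinase, rose by 0.85 in IkL/L cells and by 1.34 in WT cells. Asxl2, a partner of another deubiquitinase, rose by 0.58 in IkL/L cells and by 0.75 in WT cells, but with the mean of its probe sets the values were -0.045 (adjusted p 0.78) in IkL/L cells and 0.086 (adjusted p 0.536) in WT cells, neither called. Among 6 tested PRC2 accessory genes, 2 rose and 3 fell in IkL/L cells, and 2 rose and 2 fell in WT cells. Mtf2 fell by 0.93 in IkL/L cells and by 1.15 in WT cells, Epop fell by 1.18 in IkL/L cells and by 1.76 in WT cells, and Phf1 rose by 0.95 in IkL/L cells and by 0.91 in WT cells. Of 9 tested partners of canonical PRC1, 1 rose and 1 fell in IkL/L cells, and 4 rose and 1 fell in WT cells. Phc3, a polyhomeotic subunit, rose by 1.29 in IkL/L cells and by 1.49 in WT cells, and Cbx2, a reader of the PRC2 mark, fell by 0.91 in IkL/L cells and by 0.81 in WT cells. Of 12 tested partners of variant PRC1, 2 rose and 4 fell in IkL/L cells and 3 rose and 5 fell in WT cells. E2f6 fell by 1.77 in IkL/L cells and by 1.87 in WT cells, Pcgf6 fell by 1.53 in IkL/L cells and by 1.64 in WT cells, and Fbrs rose by 1.04 in IkL/L cells and by 1.19 in WT cells. With the mean of its probe sets Pcgf6 still fell, by 0.76 in IkL/L cells and by 0.36 in WT cells. These 11 genes were among the 4 largest called differences of their list in both genotypes. They were named because they also kept their call in both genotypes when any 1 array was left out. Their keeping it is therefore set by the choice, and called genes that lost a call this way were not named. L3mbtl2, a partner of variant PRC1, kept its calls as well but was among those 4 only in IkL/L cells (-0.72).

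Between genotypes, for the average of the stages, 3 of 12 variant PRC1 partners, 2 of 9 canonical partners, 1 of 6 accessory genes and 1 of 7 Polycomb-silenced genes were called, where 15.5% of all genes were. None of the 7 genes that oppose Polycomb marks was called at any stage or for the average. Within a stage, Epop and Pcgf5 were lower at DN3, Hoxa7 and Bcorl1 at DN4 and Pcgf3 at DP. Leaving out single arrays ended every one of these calls at least once, with an adjusted p of up to 0.294, 0.199, 0.0533, 0.249 and 0.142 in that order. Hoxa7, a homeobox gene of the kind that Polycomb silences, was lower in IkL/L cells for the average of the stages (-0.57, 67.6% of WT, adjusted p 0.000755), a call kept under all 20 alternatives. Of the variant PRC1 partners, Pcgf5 and Bcorl1 were lower (-0.34 and -0.29) and Kdm2b was higher (0.32) for that average, and of the canonical partners Cbx8 and Cbx2 were lower (-0.40 and -0.34). Among the accessory genes Epop was lower (-0.50). When single arrays were left out, the calls of Bcorl1, Kdm2b, Cbx8, Cbx2 and Epop were each lost at least 5 times, with adjusted p up to 0.0663, 0.0795, 0.136, 0.126 and 0.131, while that of Pcgf5 was kept. With the mean of its probe sets, however, the Pcgf5 average was -0.0022 (adjusted p 0.992) and its DN3 difference was -0.16 (0.724), and its average was also lost without the 3 IkL/L replicate 2 arrays (0.0925).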

How the data were processed

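The authors' deposited log2 signals, 1 per probe set and array, were made with RMA, per the submitters' processing notes, and the version and genome build are not given in the sources used here. RNA was labelled in 2 cycles from small inputs in several batches, per the labels' protocols, and the labels do not tie arrays to batches. Probe sets were named from the platform annotation, and those with 1 symbol (34958 of 45099) were used.

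Genes and probe sets that reached the array median on at least 2 arrays were fitted with limma 3.58.1 in R 4.3.3, with 1 mean per group over 12 arrays, 6 residual and 5.67 prior degrees of freedom, and Benjamini-Hochberg adjustment over everything tested in a contrast. The fit was tested on simulated data. Array medians lay between 5.14 and 5.22, and precision is limited by having 2 arrays per group. Promoter windows were read from RefSeq tables.

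The members, the companion lists and the tests were chosen with earlier results of these data known. The rule for names took all members with every probe set, up to 4 called genes with the largest difference from each companion list, the 5 genes most like Ezh1 and Ezh2, and Ikzf1. Of the genes this allows in the DN4 to DP step of both genotypes, those named kept their call in both when any 1 array was left out. This restriction was made after their values were seen. Dtx1, Ptcra, Hes1, Il2ra, Nrarp, Alas2, Klf1, Hba-a1, Eif2s3y and Xist, from the marker lists, were also named after their values were seen. The same holds for S100a8, S100a9, Lyz2, Itgam, Mpo, Elane, Csf1r, Cd68, Cd8b1, Cd8a, Aqp11, Rag1, Rag2 and Cd4.

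Same-numbered WT arrays deviated together between stages (r 0.317, 0.147 and 0.271), a hint of pairing that the labels do not state. Between IkL/L stages r was 0.494, 0.0864 and 0.0149, and across genotypes at the same stage -0.0904, -0.097 and 0.0577. The low Y-linked signal on replicate 2 of all 3 IkL/L stages also ties those numbers. The main fit took no arrays as pairs. Replicate numbers entered only the alternatives with a replicate block, and the block within genotype covered both genotypes.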

Additional observations from a re-analysis of the deposited data

Results flagged for a closer look

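The DP minus DN4 step of Pcgf3, a partner of variant PRC1, differed between genotypes by -0.82 on the log2 scale (IkL/L minus WT, 95% interval -1.17 to -0.46, limma adjusted p 0.0422 over all genes). It was the 1 gene of the members and companion lists to pass the test of that difference. The call was lost in 17 of 22 alternatives, 10 of them with a single array left out, where the adjusted p reached 0.194.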

How the results depend on the processing

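Of 18 called pairs of a member and a contrast, 357 of 390 alternative values kept the call and 33 lost it. The sign turned once: averaging the probe sets of each gene gave -0.065 for Rnf2 in the DP minus DN4 step of WT cells. At DN4 it left the genotype count at 1, with Rbbp4 gained and Jarid2 lost. That setting left 0 members called for IkL/L minus WT at DN3 and 0 for DN4 minus DN3 in WT cells. The arrays of the contrast alone left 0 at DN3. Without the 3 IkL/L replicate 2 arrays 0 were called at DN3, 0 at DN4 and 1 for the average of the stages. A trend and robust prior gave 2 at DN4, 1 at DP and 1 for DN4 minus DN3 in IkL/L cells. A second quantile normalization gave 0 at DN4, 1 for the average and 1 for DN4 minus DN3 in IkL/L cells, and arrays centred on their median gave 1 for the average. With single arrays left out, the counts ranged from 0 to 2 at DN3, 0 to 1 at DN4, 1 to 3 for the average and 0 to 1 for DN4 minus DN3 in IkL/L cells. The replicate block gave 8 members for DP minus DN4 in WT cells, against 7 without it, and changed no other count. A replicate block within genotype gave 8 there and 1 for DN4 minus DN3 in IkL/L cells. Alternatives for companion genes were added after seeing the data. Under probe set averaging the sign turned for Bcorl1 (average of the stages, 0.0058), Pcgf5 and Ikzf1 (DP minus DN4 in WT cells, 0.29 and -0.19) and Asxl2 (DP minus DN4 in IkL/L cells, -0.045). The causes were not tested. With 2 arrays a group, an effect that misses the threshold is not shown to be absent.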
